A study of Mus musculus with 4 samples.

Results

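The genes described here encode the nuclear subunits of the oxidative phosphorylation machinery. They were chosen by symbol and not by any measured value. A gene is a member where its only platform symbol begins with Ndufa, Ndufb, Ndufc, Ndufs or Ndufv and a digit, with Uqcr, with Cox and a digit from 4 to 8, or with Atp5, or is Sdha, Sdhb, Sdhc or Sdhd. Of 22180 genes on the array, 80 met this rule. Complex I took 33 of them, complex II 4, complex III 8, complex IV 17 and complex V 18. A gene with several probe sets is represented by its brightest one, judged by the mean of the 4 arrays. Ndufa4, now counted as a subunit of cytochrome c oxidase, is grouped by its symbol with complex I. Cox7a2l, a factor that joins complexes III and IV into supercomplexes, is grouped with complex IV. Symbols of 2 members, Atp5c1-ps and Uqcrh-ps1, denote pseudogenes. Some nuclear subunits, among them Ndufs6, Ndufb2, Ndufb4, Uqcr10 and Cox6c, are no members under the rule, and the subunits encoded by mitochondrial DNA were not analysed here.

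Oxidative phosphorylation makes ATP from the oxidation of nutrients. Complex I (NADH dehydrogenase) and complex II (succinate dehydrogenase) pass electrons to coenzyme Q, complex III passes them on to cytochrome c, and complex IV hands them to oxygen. Complexes I, III and IV pump protons across the inner mitochondrial membrane, and complex V, the ATP synthase, makes ATP as the protons return. Each complex has a few core subunits, which hold the redox or catalytic sites or carry the parts that do, and most have small accessory subunits that support assembly and stability. The catalytic subunits of complex IV are encoded in mitochondrial DNA. The liver relies on this machinery for gluconeogenesis and urea synthesis, and several cytochrome c oxidase subunits have one isoform for liver and another for heart and muscle.

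The study measured liver RNA with 4 Affymetrix expression arrays, and every array carried RNA combined from several animals. All mice were C57BL/6 and older than 2 months, and each pool held males and females in proportions not given in the sources used here. RNA from 7 wild-type (WT) mice on chow made up one pool. The WT fructose pools came from 7 mice given a diet of 70% fructose for 3 weeks and from 4 mice given it for 2 weeks. The fourth pool came from 6 mice null for Chrebp that ate the same diet for 2 weeks, and the allele behind the null is not given. Chrebp (gene symbol Mlxipl) is a transcription factor that switches on sugar metabolism and fat synthesis when sugar is plentiful. The series design sets the 3-week WT pool against the chow pool, here the fructose comparison, and the Chrebp-null pool against the 2-week WT pool, here the Chrebp-null comparison. These comparisons have no array in common, while any other pair of pools shares an array with them.

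Values are log2 expression levels, so a difference of 1 is a factor of 2. Each group has 1 array, so a difference is one reading minus another, with no replicate check, no standard deviation and no p-value. The number of arrays limits the precision, and the words higher and lower describe these pools only. The 2-week and 3-week WT pools differ in mice and in weeks and are not replicates. A gene entered a comparison where the higher of the compared readings was at or above a floor of log2 3.52, the median over genes of their mean level. Readings of different probe sets were not ranked against each other.

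Array medians lay between 3.11 and 3.17, and 10869 to 11239 genes reached the floor on each array. Mlxipl read 9.83 in the 2-week WT pool and 8.09 in the Chrebp-null pool, a difference of -1.74. Whether its probes lie in the deleted part is not given. The liver label was checked with markers: 6 hepatocyte markers had a mean level of 12.18 to 12.22 in every pool, and markers of muscle and brown fat (6 genes) and of red cells (2 genes) were below the floor in every pool. Of the 5 endothelial markers, 5 were at least 1.2-fold higher in the 3-week pool than in the chow pool, and their mean level was 7.35 in chow, 7.83 at 3 weeks, 7.77 at 2 weeks and 7.47 in the Chrebp-null pool. Macrophage markers averaged 7.40 in chow, 7.46 at 3 weeks, 7.76 at 2 weeks and 7.77 in the null pool, and stellate cell markers 6.09, 6.02, 6.45 and 6.39. Their part in the differences of the subunit genes was not tested. In whole liver, fewer cells of a type and less RNA per cell cannot be told apart.

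Upstream sequences of 5 members are shown, those of 4 genes high at 3 weeks of fructose and of 1 catalytic subunit beside them. Cox7b, Ndufc1, Ndufb8 and Atp5l had the largest positive differences in the fructose comparison, and Atp5b encodes the catalytic beta subunit of ATP synthase, which read lowest at 3 weeks. Each runs 5′ to 3′ along the gene's strand, from 250 bases before its start to 50 after it, from RefSeq's GRCm38.p6 assembly. Capitals mark the motifs searched.
Cox7b, chrX:106015450-106015749, plus strand: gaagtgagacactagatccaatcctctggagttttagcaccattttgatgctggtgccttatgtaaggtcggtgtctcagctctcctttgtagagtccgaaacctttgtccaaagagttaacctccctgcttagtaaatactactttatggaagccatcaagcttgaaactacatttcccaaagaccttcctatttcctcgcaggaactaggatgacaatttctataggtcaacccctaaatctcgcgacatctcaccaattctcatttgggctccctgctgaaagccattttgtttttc
Ndufc1, chr3:51408906-51409205, minus strand: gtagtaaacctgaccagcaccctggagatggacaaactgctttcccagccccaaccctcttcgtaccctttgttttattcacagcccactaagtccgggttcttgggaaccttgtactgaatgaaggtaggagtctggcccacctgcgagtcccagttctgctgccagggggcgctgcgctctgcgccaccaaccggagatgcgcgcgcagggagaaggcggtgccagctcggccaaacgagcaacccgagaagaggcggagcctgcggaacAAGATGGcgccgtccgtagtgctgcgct
Ndufb8, chr19:44555393-44555692, minus strand: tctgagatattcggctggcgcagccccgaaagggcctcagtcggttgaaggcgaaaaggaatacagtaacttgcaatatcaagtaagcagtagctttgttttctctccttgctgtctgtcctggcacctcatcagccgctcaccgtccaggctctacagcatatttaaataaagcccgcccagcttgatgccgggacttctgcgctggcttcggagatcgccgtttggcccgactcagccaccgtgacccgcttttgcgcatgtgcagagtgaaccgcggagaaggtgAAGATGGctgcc
Atp5l, chr9:44920693-44920992, minus strand: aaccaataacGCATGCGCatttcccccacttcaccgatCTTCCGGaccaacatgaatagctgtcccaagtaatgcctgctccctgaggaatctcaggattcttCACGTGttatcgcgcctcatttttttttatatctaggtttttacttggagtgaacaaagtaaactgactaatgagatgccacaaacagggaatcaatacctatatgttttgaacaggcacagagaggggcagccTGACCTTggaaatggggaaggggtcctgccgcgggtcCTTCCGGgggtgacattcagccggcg
Atp5b, chr10:128083057-128083356, plus strand: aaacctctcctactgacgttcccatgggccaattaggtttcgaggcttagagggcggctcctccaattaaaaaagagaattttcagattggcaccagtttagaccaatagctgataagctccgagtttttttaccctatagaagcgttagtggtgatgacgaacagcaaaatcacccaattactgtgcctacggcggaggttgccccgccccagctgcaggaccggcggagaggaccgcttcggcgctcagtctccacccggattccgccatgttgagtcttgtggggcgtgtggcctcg

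The search covered 5 motifs on both strands. They were the core of the NRF1 site (GCGCATGC), the ETS site that GABPA binds (CCGGAAG), a YY1 site (AAGATGG), a nuclear receptor element (AAGGTCA) and the E-box CACGTG. NRF1 and GABPA are the classical regulators of respiratory chain genes, and ChREBP binds paired E-box-like sequences. CCGGAAG and AAGATGG can share the letters AAG where they adjoin, and no motif contains another. Of the members, 64 of 80 had an entry in the RefSeq table, with 69 windows. The NRF1 core was found in 10 of 64 members (15.6%), against 3.05% of all 27025 genes in the table and 5.89% of the 8758 above the floor. The ETS site was found in 17 members (26.6%), against 9.93% of all genes and 19.7% of those above the floor. The YY1 letters were in 10 members (15.6%, against 7.28% and 8.50%). The nuclear receptor element was in 6 members (9.38%, against 5.38% and 4.12%), and the E-box in 6 (9.38%, against 8.09% and 11.9%). Over all 32851 windows of this length, the shares were 2.71% for the NRF1 core, 8.86% for the ETS site, 6.34% for YY1, 4.72% for the nuclear receptor element and 7.15% for the E-box. Among the printed windows, Atp5l held the NRF1 core, 2 ETS sites, an E-box and the nuclear receptor element, while Ndufc1 and Ndufb8 each held the YY1 letters just after the start. Cox7b and Atp5b held none of these letters in this window. A match describes letters and is not evidence of binding.

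Most members read above the floor, which marks the middle of all genes and is no measured background. Of the 80 members, 68 were at or above the floor in every pool, 3 in some pools (Atp5o in 3, Cox4i2 in 2 and Cox6a2 in 1) and 9 in none. Those 9 are Atp5c1-ps, Atp5j2, Cox6b2, Cox7b2, Cox8b, Cox8c, Ndufa4l2, Ndufs5 and Uqcrh-ps1. The list holds both pseudogenes and the isoforms Cox6b2, Cox7b2 and Cox8c, known from testis, and Cox8b, known from heart and muscle. Ndufs5 and Atp5j2 encode ordinary subunits of complexes I and V, and their single-symbol probe sets read at most 3.43 and 3.13. A probe set shared by Ndufs5 and its pseudogene read 6.57 in chow, 6.86 at 3 weeks, 6.36 at 2 weeks and 6.03 in the Chrebp-null pool. Members below the floor entered no comparison.

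The 3-week fructose pool stood out as the one in which most subunit genes read highest. Of the 71 members above the floor in at least 1 pool, 45 (63.4%) had their highest reading there, against 22.1% of 12194 such genes over the whole array. The chow pool was highest for 15 members, where the array-wide share was 23.5%. The Chrebp-null pool was highest for 10 members, and it was the pool that most often read highest over all genes, at 37.6%. The 2-week WT pool was highest for 1 member, Uqcrc2, against 16.8% of all genes, and it was the lowest pool for 31 members (43.7%, against 27.3% of all genes). By complex, the 3-week pool was highest for 21 of 31 members of complex I, 1 of 4 of complex II, 4 of 7 of complex III, 10 of 13 of complex IV and 9 of 16 of complex V. With arrays centred on their medians the share was 60.6% of members and 17.4% of all genes, and with quantile normalization 62.5% and 24%.

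**Figure D1:**
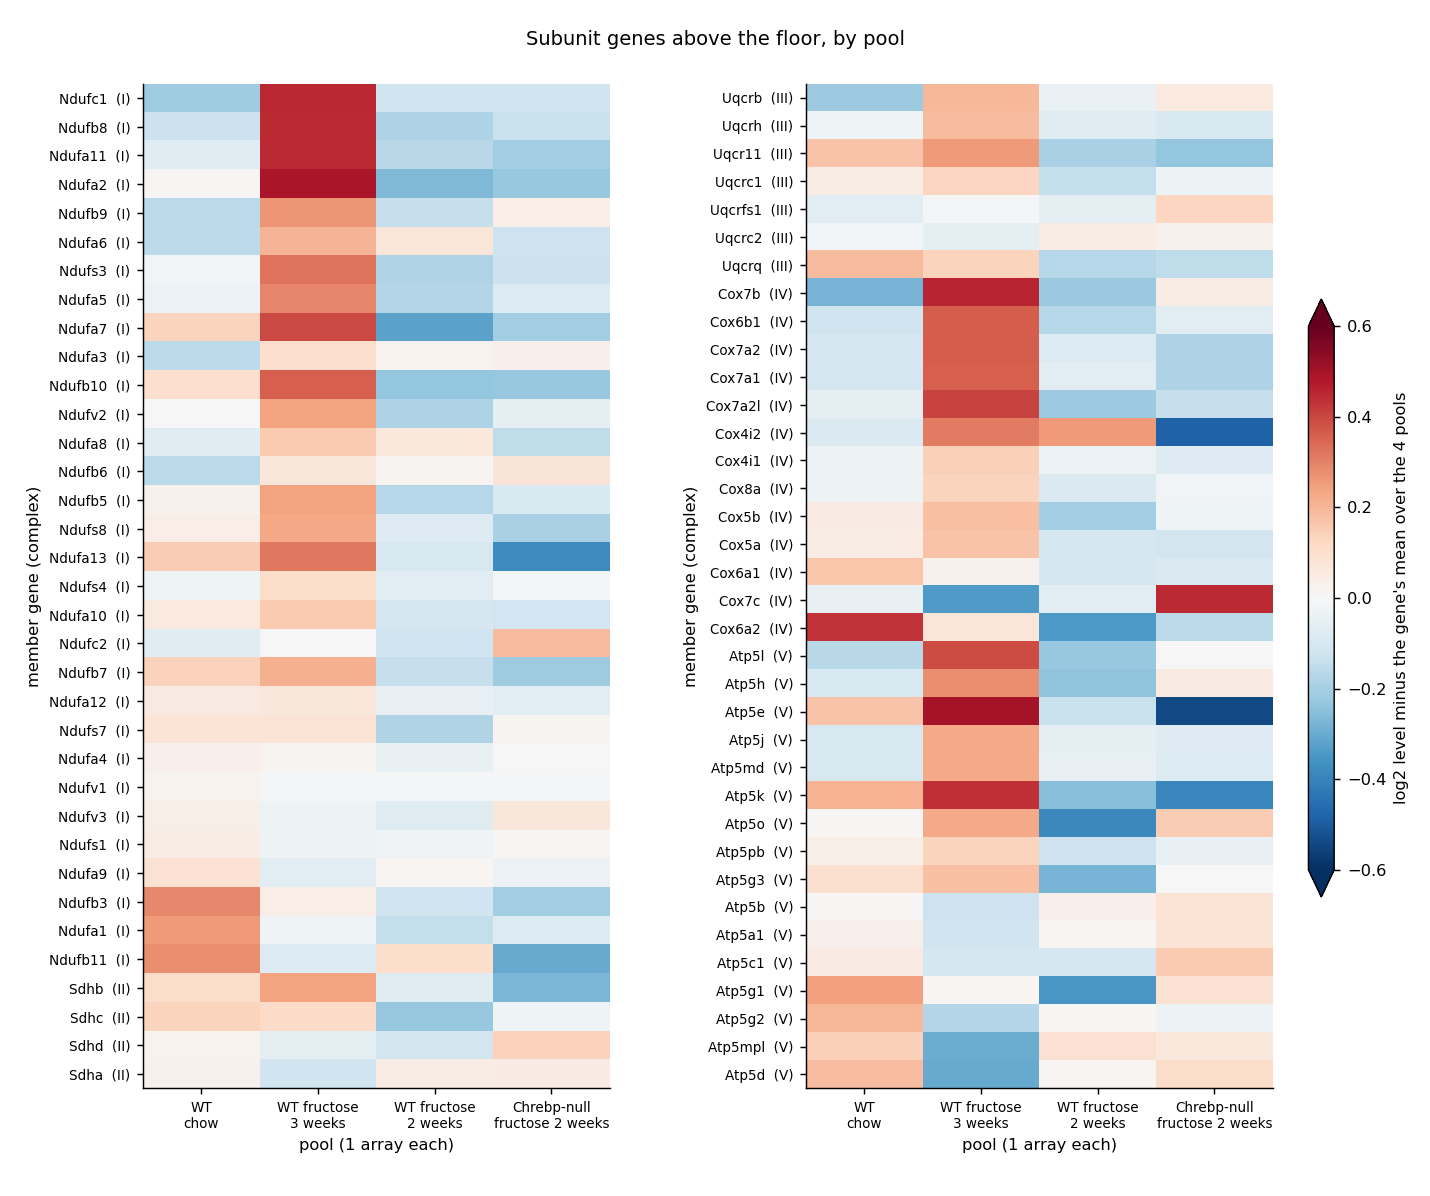
Each row is a subunit gene above the floor in at least 1 pool, each column a pool of 1 array, and the colour is the log2 level minus the gene's own mean over the 4 pools. The 3-week fructose column holds most of the dark red cells, while Ndufv1, Ndufs1 and Ndufa4 are nearly white across all pools.

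**Figure D2:**
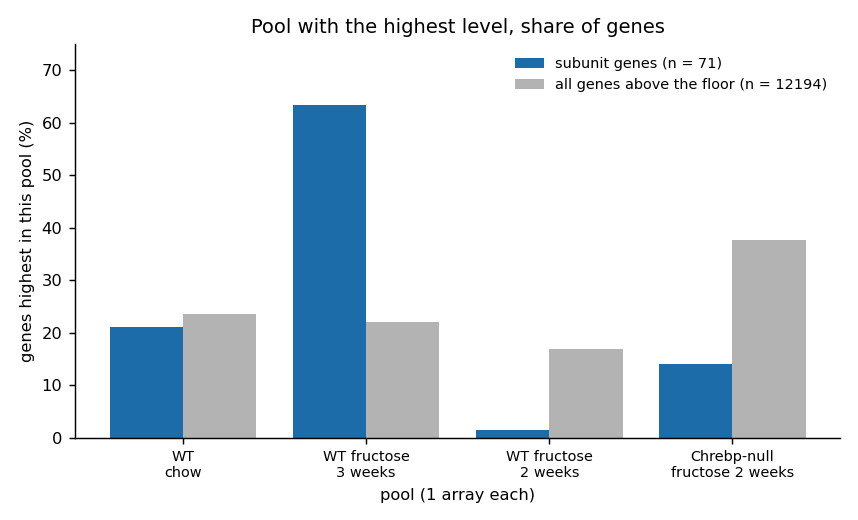
Bars give the percent of genes whose highest reading lay in each pool, for the 71 subunit genes above the floor (blue) and all 12194 genes above it (grey). The 3-week fructose pool was highest for 63.4% of subunit genes and 22.1% of all genes.

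The departures were small. The range over the 4 pools had a median of 0.41 over the members and 0.47 over all genes, and it ran from 0.03 for Ndufv1 to 1.04 for Atp5e. Measured from each gene's own mean, the median member lay at 0.03 in chow, 0.16 at 3 weeks, -0.10 at 2 weeks and -0.07 in the Chrebp-null pool. Over all genes these medians were 0.01, -0.04, -0.03 and 0.06.

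In the fructose comparison, subunit genes were more often higher than lower after 3 weeks of fructose. Of 71 members above the floor, 21 exceeded chow by 1.2-fold or more (log2 0.26) and 7 lay below it by as much. Over all 11717 genes the shares were 16.4% higher and 26.4% lower, so the members leaned the opposite way to the array as a whole. The median difference was 0.13 over the members and -0.05 over all genes. Past 1.5-fold, 2 members were higher and 0 lower, against 3.57% and 7.05% of all genes, and 0 members reached 2-fold, against 1.8% of genes in either direction. Subtracting the trend of the difference with level changed the array-wide split from 1926 higher and 3091 lower to 2392 and 2510, and that of the members from 21 and 7 to 27 and 6. The members' median stayed above 0 with arrays centred on their medians (0.09), with quantile normalization (0.15) and with the trend removed (0.18). With the 2-week WT array in place of the 3-week one the median was -0.12, and with the mean of both it was -0.029.

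**Figure D3:**
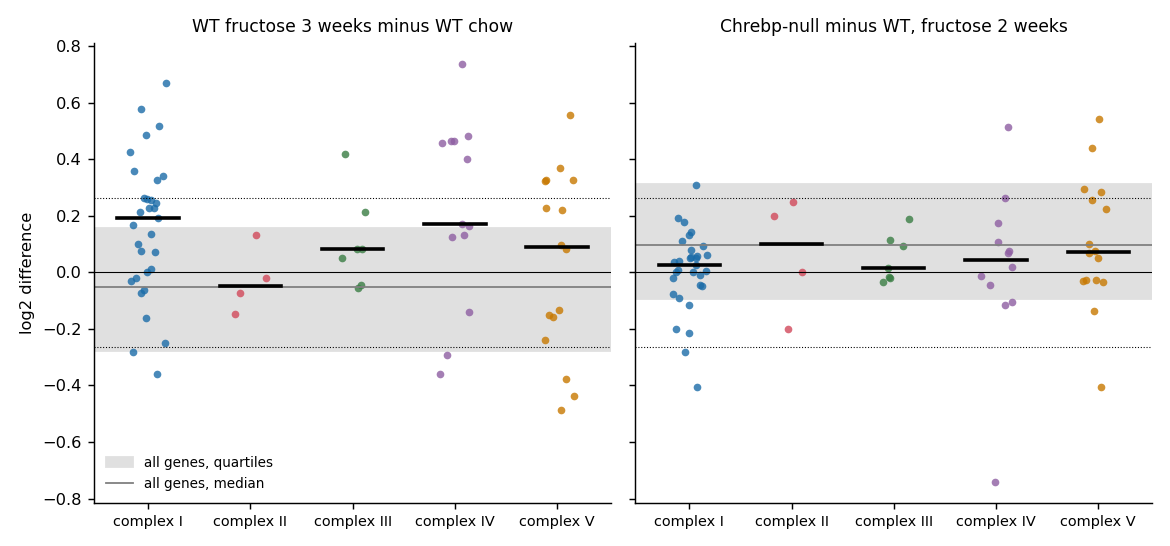
Points are log2 differences of single subunit genes by complex, for 3 weeks of fructose minus chow in WT (left) and Chrebp-null minus WT at 2 weeks of fructose (right). Black bars are medians of a complex, the grey band and line are quartiles and median of all genes above the floor, and dotted lines mark 1.2-fold. Points of complexes I, IV and V reach higher on the left, where the medians are 0.19, 0.17 and 0.09, while on the right most lie near 0.

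Complex I had the highest median in the fructose comparison, 0.19, with 9 of 31 members at least 1.2-fold higher and 2 lower. Ndufc1 (probe set 17405133), a small subunit of the membrane arm, read 8.02 in chow, 8.69 at 3 weeks and 8.12 in each of the pools at 2 weeks. The 3-week pool stood alone above the other 3, and Ndufc1 was 1.59-fold higher there than in chow. Ndufb8, another membrane-arm subunit, read 5.86, 6.44, 5.80 and 5.86 in the same order. Its difference from chow was 0.58, just short of 1.5-fold, and again only the 3-week reading stood apart. Ndufa11, a membrane-arm subunit, read 7.43, 7.95, 7.34 and 7.29, and Ndufa2, an accessory subunit of the matrix arm, read 7.53, 8.02, 7.26 and 7.30. In both, the 3-week pool was the highest and the pools at 2 weeks the lowest. The other higher members were Ndufb9 (0.42), Ndufa6 (0.36), Ndufs3 (0.34), Ndufa5 (0.33) and Ndufa7 (0.26).

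The lower members of complex I were Ndufb11 and Ndufa1. Ndufb11, a membrane-arm subunit encoded on the X chromosome, read 5.10 in chow, 4.74 at 3 weeks, 4.93 at 2 weeks and 4.53 in the Chrebp-null pool, so chow was the highest. Ndufa1, also X-linked, read 8.34, 8.06, 7.94 and 8.0. Its 3 fructose readings lay together and below chow.

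Of the 6 member genes for core subunits of complex I, 1 was at least 1.2-fold higher in the fructose comparison and 0 lower. Ndufv1, which binds NADH and the flavin cofactor, read 8.32, 8.28, 8.28 and 8.29 across the pools, the flattest pattern of any member above the floor. Ndufs1, the largest iron-sulphur subunit, read 7.97, 7.89, 7.90 and 7.93. Their ranges over the 4 pools were 0.03 and 0.07. Ndufv2 (0.25), Ndufs8 (0.19) and Ndufs7 (0.00), which carry iron-sulphur clusters, stayed under 1.2-fold in the fructose comparison. Ndufs3, in the arm that leads electrons to coenzyme Q, read 5.40, 5.75, 5.24 and 5.29, and it was the only core subunit of any complex past 1.2-fold there.

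Complex II has no accessory subunits among the members, and its median in the fructose comparison was -0.05. Sdha, the flavoprotein that oxidises succinate, read 10.81, 10.66, 10.83 and 10.83. The 3-week pool was its lowest. Sdhb, the iron-sulphur subunit, read 8.80, 8.93, 8.62 and 8.42, and was highest in that pool. The membrane anchors Sdhc and Sdhd differed from chow by -0.02 and -0.07. None of the 4 reached 1.2-fold in either design comparison, and with the trend removed the complex median was 0.01.

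Complex III had a median of 0.08, with 1 of 7 members past 1.2-fold. That member was Uqcrb, a small subunit that helps bind ubiquinone, which read 11.04 in chow, 11.46 at 3 weeks, 11.22 at 2 weeks and 11.31 in the Chrebp-null pool. Here all 3 fructose pools lay above chow. Uqcrc1 and Uqcrc2, the large core proteins of the matrix side, differed from chow by 0.08 and -0.04. Uqcrfs1, the Rieske iron-sulphur protein, differed by 0.05. Among the small subunits, Uqcrh differed by 0.21, Uqcr11 by 0.08 and Uqcrq by -0.06.

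In complex IV, 6 of 13 members were at least 1.2-fold higher in the fructose comparison and 2 lower, and the median was 0.17. Cox7b, a small subunit needed for assembly of cytochrome c oxidase and also X-linked, read 9.09 in chow and 9.83 at 3 weeks. It read 9.15 at 2 weeks and 9.42 in the Chrebp-null pool. Its difference from chow, 0.74 or 1.67-fold, was the largest of any member above the floor. The 3-week reading was the highest, and the Chrebp-null reading lay between it and the others. Cox6b1, a subunit on the intermembrane side, read 9.06, 9.54, 9.01 and 9.11. Cox7a2l, the supercomplex factor, read 5.89, 6.35, 5.72 and 5.80. In both, only the 3-week reading stood apart. Cox7c, a small subunit, was near the floor and lower at 3 weeks (3.83, 3.53, 3.81 and 4.32). The regulatory and structural subunits Cox4i1, Cox5a and Cox5b, whose catalytic partners are encoded in mitochondrial DNA, differed from chow by 0.17, 0.13 and 0.13.

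The general or liver isoforms of complex IV were above the floor in every pool, and of their partner forms Cox4i2, Cox6a2, Cox6b2, Cox7a1, Cox8b and Cox8c only Cox7a1 was. Cox4i1, the general form, read 9.16, 9.33, 9.15 and 9.11, and Cox4i2, known from lung and low oxygen, read 3.45, 3.85, 3.80 and 3.05, above the floor only in the WT fructose pools. With the chow reading set at the floor, its fructose difference is 0.33. Cox6a1, the liver form, read 11.92, 11.78, 11.65 and 11.67. Its heart and muscle partner Cox6a2 was above the floor only in chow, at 3.66, and its fructose difference of -0.36 is -0.13 with the 3-week reading set at the floor. The liver form Cox7a2 read 7.81, 8.27, 7.82 and 7.72, and the heart and muscle form Cox7a1 was above the floor in every pool at 4.48, 4.95, 4.52 and 4.41. The pair Cox7a1 and Cox7a2 showed the same difference from chow, 0.46 each. Cox8a, the general form, read 10.17, 10.34, 10.12 and 10.19, while Cox8b read at most 2.88 and Cox8c at most 2.53.

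**Figure D4:**
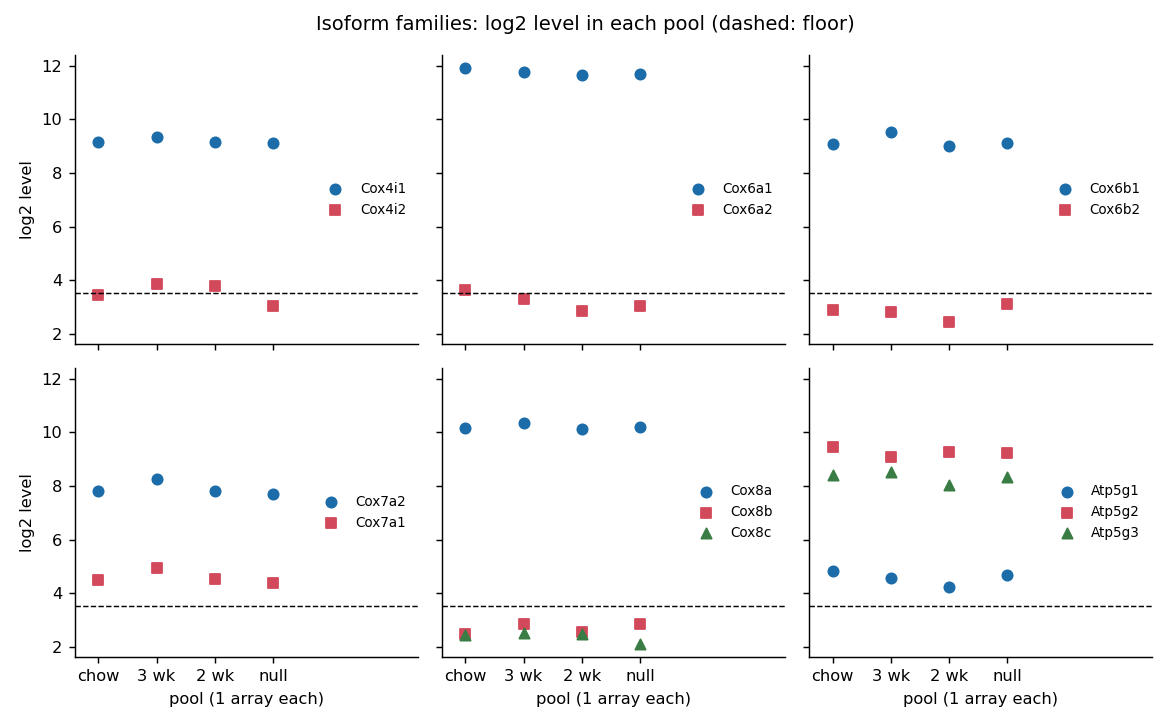
Log2 level of each isoform in the 4 pools (chow, WT fructose 3 weeks, WT fructose 2 weeks, Chrebp-null fructose 2 weeks), 1 panel per family, with the floor of 3.52 as a dashed line. The general or liver forms lie far above the floor, Cox6b2, Cox8b and Cox8c lie below it, and all 3 Atp5g genes lie above it; heights of different genes rest on different probe sets.

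Complex V divided into members on either side of chow. Its median was 0.09, with 5 of 16 members at least 1.2-fold higher and 3 lower. Atp5l, subunit g of the membrane part, which helps the enzyme form dimers, read 8.54 in chow, 9.10 at 3 weeks, 8.48 at 2 weeks and 8.71 in the null pool. The 3-week reading was highest and lay 0.56 above chow. Atp5h, subunit d of the outer stalk, read 10.44, 10.81, 10.29 and 10.59. Atp5e, the epsilon subunit of the rotor, read 7.04, 7.37, 6.73 and 6.33. The WT readings of Atp5e bracket chow, and its Chrebp-null reading was the lowest. Atp5j (0.33), coupling factor 6, and Atp5md (0.32), a small membrane subunit, completed the higher members.

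The lower members of complex V were Atp5mpl, Atp5g2 and, on its brighter probe set only, Atp5d. Atp5d, the delta subunit of the rotor, read 7.46, 6.98, 7.29 and 7.39 there. Its second probe set read 5.22, 6.31, 5.31 and 4.98, highest where the other was lowest, and the mean of both was 0.31 above chow at 3 weeks. Atp5mpl, a small proteolipid of the membrane part, read 8.92, 8.48, 8.86 and 8.84. Only its 3-week reading was low. The 3 genes for the c subunit of the membrane ring encode the same mature protein, yet their readings differed: Atp5g1 differed from chow by -0.24, Atp5g2 by -0.38 and Atp5g3 by 0.08. At 2 weeks, Atp5g1 read 4.23 and Atp5g3 8.04, each the lowest of its 4 readings.

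The catalytic head of complex V was nearly level. Atp5a1, the alpha subunit, read 10.68, 10.53, 10.66 and 10.74, and Atp5b, the catalytic beta subunit, read 11.45, 11.31, 11.47 and 11.52. Atp5c1, the gamma shaft, read 4.40, 4.24, 4.25 and 4.51. The 3-week readings differed from chow by -0.15, -0.13 and -0.16, and the Chrebp-null pool was the highest for each.

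Core and accessory subunits thus had different medians in the fructose comparison. The core class holds the subunits with redox or catalytic sites, their conserved partners, the large core proteins of complex III and, for complex IV, Cox4i1, Cox5a and Cox5b, which hold no such site. The rotor subunits Atp5d and Atp5e and the c ring genes were counted as accessory. The 19 core subunits had a median difference of 0.00, with 1 at least 1.2-fold higher and 0 lower. The 52 accessory subunits above the floor had a median of 0.22, with 20 higher and 7 lower. The 3-week pool was the highest for 9 of 19 core and 36 of 52 accessory subunits. Between the WT fructose pools the medians were 0.17 and 0.28, and between chow and the 2-week pool they were -0.13 and -0.10. The split was not tested as a group difference, and other splits were tried after seeing the data. With Cox4i1, Cox5a and Cox5b counted as accessory, the core median in the fructose comparison was -0.026 (16 genes) and the accessory one 0.21 (55). With Atp5d, Atp5e and the Atp5g genes moved to the core as well, they were -0.032 (21 genes, 2 higher and 2 lower) and 0.22 (50 genes, 19 higher and 5 lower). Between the WT fructose pools the core median dropped from 0.17 to 0.051 and 0.056 under these splits. Over the scalings tried, the accessory median lay between 0.18 and 0.26 and the core median between -0.039 and 0.05.

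**Figure D5:**
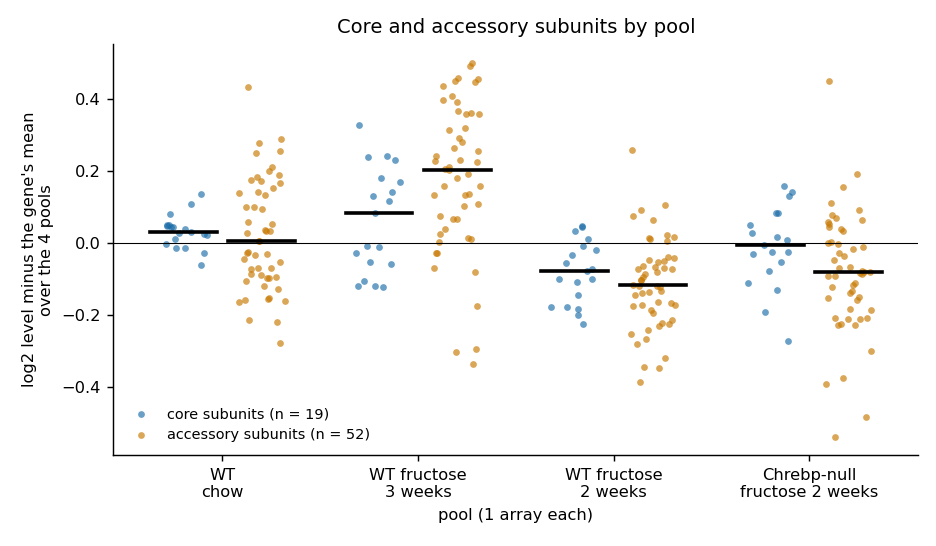
Points are single subunit genes, shown as log2 level minus the gene's mean over the 4 pools, for 19 core subunits (blue) and 52 accessory subunits (orange), with medians as black bars. Accessory subunits lie highest at 3 weeks of fructose (median 0.20, core 0.08), and both classes lie below 0 at 2 weeks (-0.12 and -0.08).

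At 2 weeks of fructose, the Chrebp-null and WT pools differed little in most of these genes. In the Chrebp-null comparison, 7 of 70 members were higher and 4 lower by 1.2-fold or more, against 29.6% and 12.7% of 11631 genes. A gene enters through its higher reading, and with readings below the floor set at it the counts were 6 and 4, against 3124 and 1300 of all genes. The median was 0.04 over the members and 0.10 over all genes, and the interquartile range of the difference was 0.15 over the members and 0.41 over all genes. In the fructose comparison these ranges were 0.39 and 0.44. Most members are bright. Over the 5545 genes with a mean at or above the 75 percentile (log2 5.93), the range was 0.32 in the Chrebp-null comparison and 0.41 in the fructose comparison. Of these bright genes, 20.2% were higher and 12.4% lower in the Chrebp-null comparison. Past 1.5-fold, 0 members were higher and 1, Cox4i2, was lower as read, against 9.16% and 3.79% of genes, and 0 reached 2-fold, against 3.46%. The members' median was 0.05 with arrays centred on their medians, 0.00 with quantile normalization and -0.02 with the trend removed. With the 3-week WT array in place of the 2-week one it was -0.22, and with the mean of both WT arrays -0.077. The array-wide split went from 3437 higher and 1476 lower to 2752 and 1907 with quantile normalization and 2252 and 2321 with the trend removed, while the members' split went from 7 and 4 to 6 and 4 and to 5 and 5. The array-wide median was 0.04 with quantile normalization and 0.00 with the trend removed.

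The medians by complex in the Chrebp-null comparison were 0.03 for complex I, 0.10 for II, 0.01 for III, 0.04 for IV and 0.07 for V. With the trend removed, those of complexes I and III were -0.036 and -0.039. Complex V held 4 of the 7 higher members. Atp5o, the stalk subunit that confers oligomycin sensitivity, read 3.20 in WT at 2 weeks, under the floor, and 3.75 in the null pool, or 0.22 higher with the WT reading set at the floor. Atp5g1 differed by 0.44, Atp5h by 0.30 and Atp5g3 by 0.28. Cox7c (0.52), Cox7b (0.26) and Ndufc2 (0.31), a membrane-arm subunit of complex I, were the others.

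The 4 lower members were Cox4i2, Ndufb11, Atp5e and Ndufa13. Cox4i2 was the member past 1.5-fold, at -0.74 as read, but its null reading of 3.05 lies below the floor and the difference is -0.27 with that reading set at the floor. Ndufb11 and Atp5e differed by -0.41 and -0.40, but the second probe set of Atp5e differed by 0.08 and the mean of both by -0.16, under 1.2-fold. Ndufa13, a complex I subunit also known as GRIM-19, read 7.45, 7.62, 7.21 and 6.93, with the null pool the lowest. Among the core subunits, 0 of 19 reached 1.2-fold. The widest were Atp5c1 at 0.26, Sdhd at 0.25, Sdhb at -0.20 and Sdhc at 0.20, while Sdha and Ndufv1 each differed by 0.00.

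Because the direction turned with the WT fructose pool, the remaining pairs of pools are given side by side. They share arrays with the design comparisons and each other and add no independent evidence. Between the 2-week WT pool and chow, 1 of 71 members was at least 1.2-fold higher and 16 were lower, with a median of -0.12, against 14.9% and 23.0% of all genes and a median of -0.04. Between the 3-week and 2-week WT pools, 36 of 70 members were higher and 3 lower, with a median of 0.27. Over all genes 21.5% were higher and 23.7% lower, with a median of -0.02. In this pair 26 of 68 mitochondrial ribosomal protein genes (38.2%) were higher and 3 lower, with a median of 0.15. Of 41 assembly factors, which help build the complexes, 12 (29.3%) were higher and 5 lower, with a median of 0.14. Of 13 citrate cycle genes, 0 were higher and 1 lower, with a median of 0.00. Between the Chrebp-null and 3-week WT pools, 3 of 70 were higher and 32 lower, with a median of -0.22, against 34.7% and 16.9% and a median of 0.11. Between the Chrebp-null and chow pools, 4 were higher and 13 lower, with a median of -0.07, against 25.7% and 16.3% and a median of 0.06. The share of members lower at 2 weeks than in chow, 22.5%, was close to that of all genes, while the share higher, 1.41%, lay below it. Most members are bright, and of genes with a mean at or above the 75 percentile 15.1% were lower and 12.9% higher. Of the stellate cell markers, 4 of 5 were at least 1.2-fold lower at 3 than at 2 weeks in WT, as were 2 of 5 macrophage and 1 of 5 endothelial markers, and 0 of these 15 were higher. Their part in the members' differences between these pools was not tested.

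The largest gaps between the WT fructose pools again belonged to small accessory subunits. Past 1.5-fold, 11 members were higher at 3 weeks and 0 lower, against 6.34% and 6.44% of all genes. Ndufa2 differed by 0.76 and Ndufa7, a matrix-arm subunit, by 0.72. Atp5k, subunit e of the membrane part, read 7.39, 7.61, 6.92 and 6.78, so both 2-week pools lay below chow and the 3-week pool above it. The others were Cox7b (0.68), Ndufb8 (0.64), Atp5e (0.64), Cox7a2l (0.62), Atp5l (0.62), Atp5o (0.62, or 0.30 with its 2-week reading set at the floor), Ndufa11 (0.61) and Ndufb10 (0.59). The 3 members at least 1.2-fold lower at 3 weeks than at 2 were Atp5mpl (-0.39), Atp5d (-0.31, but 1.005 on its second probe set) and Cox7c (-0.27). All 11 higher members are accessory subunits, a class that held 51 of the 70 members compared. Atp5e, among them, is core under the split that moves the rotor subunits. At 1.2-fold, 8 of 19 core subunits were higher in that pair and 0 lower, beside 28 and 3 of 51 accessory ones. Core medians were 0.28 in complex I, 0.18 in II, 0.05 in III, 0.27 in IV and -0.13 in V. The accessory median of complex I was 0.18.

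Some genes rest on probe sets that disagree. A second single-symbol probe set, dimmer by construction, exists for 9 members. In the fructose comparison 6 of the 9 second sets were at least 1.2-fold higher and 1 lower. The share over second sets of other genes was not counted, so this count has no array-wide value beside it. That of Cox5b read 2.91 in chow, below the floor, and 4.06 at 3 weeks. That of Cox7b differed by -0.16, with readings of at most 2.97, below the floor. For Atp5d the brighter set differed by -0.49 and the dimmer by 1.10, so its direction is uncertain. For Atp5e they differed by 0.33 and 0.87, for Ndufa8, a subunit of complex I facing the intermembrane space, by 0.23 and 0.995, and for Atp5g2 by -0.38 and -0.62. Probe sets with several symbols, such as those of Uqcr10, Ndufs6 and Cox6c, gave 10 readings outside the rule. Of these, 3 were at least 1.2-fold higher and 0 lower in the fructose comparison, with a median of 0.06, and the one that names Uqcr10 differed by 0.62.

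Members of most brightness ranges read higher at 3 weeks. In the fructose comparison the median of members with mean levels from 5 to 6.5 was 0.17 (12 members), from 6.5 to 8 it was 0.22 (15), from 8 to 9.5 it was 0.13 (21) and above 9.5 it was 0.10 (15). The medians of all genes in these ranges lay between -0.08 and -0.04. Below 5, 7 members had a median of -0.16, against -0.05 for all genes. In the Chrebp-null comparison the members' medians, from the dimmest range to the brightest, were 0.26, 0.05, -0.02, 0.00 and 0.05. Those of all genes were 0.16, 0.12, 0.07, 0.04 and 0.01.

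Other genes of mitochondrial energy metabolism were counted the same way in the fructose comparison, where 16.4% of all genes were higher and 26.4% lower. Of 41 assembly factors, which build the complexes without staying in them, 7 were at least 1.2-fold higher and 11 lower (17.1% and 26.8%), shares near those of all genes, with a median of -0.11. Cox16, an assembly factor of complex IV, differed by 0.85, and Uqcc3, one of complex III, by -0.95. Of 14 genes of electron carriers and coenzyme Q synthesis, 1 was higher and 3 lower. The higher one was Cycs, somatic cytochrome c, which read 9.99 in chow, 10.52 at 3 weeks, 10.21 at 2 weeks and 10.36 in the null pool. Of 13 citrate cycle genes, 1 was higher and 2 lower, and of 7 carriers and related genes, 1 and 1. Of 68 mitochondrial ribosomal protein genes, 9 were higher and 16 lower (13.2% and 23.5%), also near the array-wide shares, with a median of -0.02. Among 16 regulators of mitochondrial biogenesis, 4 were higher and 4 lower (25% each), with a median of -0.02. The 2 with the largest differences from chow lay on either side of it. Ppargc1a, the coactivator of respiratory genes, read 7.34, 8.10, 7.65 and 7.74, and Twnk read 5.53, 4.95, 5.40 and 5.24.

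In the Chrebp-null comparison several of these lists had more higher than lower genes, as did the whole array with 29.6% and 12.7%. Of 13 citrate cycle genes, 4 were at least 1.2-fold higher (30.8%, near the array-wide share) and 0 lower, with a median of 0.15. Idh2, the mitochondrial NADP-dependent isocitrate dehydrogenase, read 8.92 in the 2-week WT pool and 9.63 in the null pool, and Idh3a, of the NAD-dependent enzyme, read 7.90 and 8.39. Of 67 mitochondrial ribosomal protein genes, 15 were higher and 3 lower (22.4% and 4.48%), with a median of 0.13, and of 41 assembly factors, 10 and 4 (24.4% and 9.76%), with a median of 0.12, so the higher shares lay below that of all genes. Foxred1, an assembly factor of complex I, read 6.87 and 7.63. Atpif1, the inhibitor of ATP hydrolysis by complex V, read 7.40 and 7.96. The regulators split 4 and 4, and electron carriers and coenzyme Q genes 1 and 2.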

How the data were processed

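Per the labels' protocols, liver RNA of mice alike in genotype and diet was combined, and the Affymetrix WT Plus kit was used for labelling. The values deposited by the authors are on a log2 scale and come, per the submitters' processing notes, from affy and RMA, which corrects background, normalizes and summarises probes. RMA tends to compress large differences. Tool versions were not given in the sources used here, nor whether normalization covered all 4 arrays jointly. The platform annotation named the probe sets (23521 with 1 symbol, 1814 with several, 16010 with none). Entrez identifiers of all 80 members were found in a GRCm38.p6 table and 0 symbols differed.

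The values were used as deposited. The floor (log2 3.52), folds of 1.2, 1.5 and 2, gene lists and members were chosen with earlier results of these data known. Any member could be named. Those named in full are members past 1.5-fold, up to 4 per complex and comparison with the largest differences, core subunits and isoform families; at most 2 genes per other list were named. The code was run on simulated arrays with a known shift of the members on a single array. That run checked the arithmetic only and not the results given here. Alternatives were other floors, scalings, a lowess trend (fraction 0.3), mean probe sets, other WT fructose arrays and folds. Python 3.11.15 was used with numpy 2.4.6, pandas 2.3.3, statsmodels 0.14.6 and matplotlib 3.10.9.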

Additional observations from a re-analysis of the deposited data

How the results depend on the processing

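The members' median in the fructose comparison (0.13) reversed to -0.12 with the 2-week WT array in place of the 3-week one and was -0.029 with the mean of both. That in the Chrebp-null comparison (0.04) was -0.22 with the 3-week WT array and -0.077 with the mean of both. Members past 1.2-fold in the fructose comparison (28, of which 21 higher and 7 lower) became 17, 1 and 16 with the other WT array; the mean of both gave 12 in all and 5 higher. At 1.5-fold they were 2, 2 and 0, and at 2-fold 0, 0 and 0. Lower members were 4 with a floor at the 75 percentile, and 4 among members whose mean reached it. Those in the Chrebp-null comparison (11, of which 7 higher and 4 lower) became 35, 3 and 32 with the other WT array; the mean of both gave 1 higher and 15 lower. They were 6, 4 and 2 with the floor at the 75 percentile and also among members whose mean reached it. They were 1, 0 and 1 at 1.5-fold and 0, 0 and 0 at 2-fold. Without a floor 11 were higher. Of single members, Atp5d reversed in the fructose comparison to 0.31 with the mean of its probe sets. With the other WT array the fructose difference reversed for Atp5e (-0.31), Atp5h (-0.15), Atp5l (-0.062), Cox6b1 (-0.053), Cox7a2l (-0.16), Ndufa11 (-0.095), Ndufa2 (-0.27), Ndufa5 (-0.14), Ndufa7 (-0.45, and -0.095 with the mean of both), Ndufb8 (-0.058), Ndufs3 (-0.16), the median of complex I (-0.11) and that of accessory subunits (-0.10). The Chrebp-null difference reversed for Atp5g3 (-0.18), Atp5h (-0.23), Atp5o (-0.074) and Cox7b (-0.42, and -0.076 with the mean of both). Members were called reversed by any change of sign, a median only where both values lay at least 0.1 from 0. By sign alone, the fructose medians of complexes III (-0.05), IV (-0.05), V (-0.16) and core subunits (-0.13) also turned with the other WT array. So did the Chrebp-null medians of complexes I (-0.27), III (-0.16), IV (-0.35), V (-0.13), core (-0.068) and accessory subunits (-0.28). Complex II kept its sign in both comparisons (-0.16 and 0.01). The cause of these reversals was not tested; the pools differ in mice and weeks. The members' median kept its direction in the fructose comparison under the other floors, scalings and probe-set choices. The restriction to members with a high mean, that to members with 1 unshared probe set, the repeats of the core, accessory and highest-pool values, the other splits of core and accessory genes, the readings set at the floor, and the ribosomal and proteasome lists were chosen after seeing the data. No paired analysis was possible because each group has 1 array, and for the same reason no replicate could be left out. Signal near the floor limits Cox4i2, Cox6a2, Cox7a1, Cox7c, Atp5o, Atp5c1 and Atp5g1.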

Other observations

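Among cytosolic protein machines counted after seeing the data, ribosomal protein and ribosomal protein-like genes (Rpl and Rps symbols without kinases, binding proteins and retrogenes) had 13 of 50 at least 1.2-fold higher and 8 lower in the fructose comparison, with a median of 0.07. The array-wide shares were 16.4% and 26.4%. In the Chrebp-null comparison 6 of 52 were higher and 7 lower. Proteasome subunit genes had 5 of 37 higher and 10 lower in the fructose comparison, with a median of -0.06. In the Chrebp-null comparison 12 of 36 were higher and 0 lower, with a median of 0.14, while 29.6% of all genes were higher and 12.7% lower.

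In the 2-week WT pool, assembly factors of the respiratory chain were more often lower than in chow. Of 41, 21 (51.2%) were at least 1.2-fold lower and 1 higher, with a median of -0.27, while over all genes 23.0% were lower and 14.9% higher. Of 66 mitochondrial ribosomal protein genes, 18 (27.3%) were lower, near the array-wide share, and 2 higher, with a median of -0.18. In that pool, 3 of 5 macrophage, 3 of 5 endothelial and 3 of 5 stellate cell markers were at least 1.2-fold higher than in chow, and 0 of 5 in each list were lower. Their part in the lower readings was not tested.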
